A study of Saccharomyces cerevisiae with 28 samples.

Results

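The measurements concern 8 yeast genes of gluconeogenesis and the glyoxylate cycle, FBP1, PCK1, ICL1, MLS1, MDH2, CIT2, SFC1 and JEN1. They were picked by standard name from the smaller deposited table of 5404 open reading frames (ORFs) and linked by systematic name to the larger table of 6692 ORFs, whose counts and RPKM values were used. All 8 were present in both tables, and all were among the 6592 ORFs with a mean of at least 1 RPKM that entered the tests. RPKM is a read count scaled to the length of the ORF and to the reads of the library. The data were poly(A)+ RNA sequencing of 28 libraries from haploid Saccharomyces cerevisiae in the BY4741 background, a laboratory strain of the S288C lineage. The study compared strains with and without a histone H3 allele, H3H113N, in media that differ in how much copper utilization they demand.

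In YPD, rich glucose medium, the groups were H3H113N, the CTR1 deletion dCtr1, their combination H3H113N-dCtr1, and the unaltered strain WT. YPEG, rich medium in which the carbon sources are ethanol and glycerol, held H3H113N and WT. Synthetic complete glucose medium, SC, held H3H113N, the CCS1 deletion dCcs1, H3H113N-dCcs1 and WT. SC without lysine, SC-lys, held H3H113N-dCcs1 and dCcs1, each also grown with 75 µM CuSO4. CTR1 encodes the high-affinity copper importer of the plasma membrane and CCS1 the copper chaperone of superoxide dismutase. Groups had 2 libraries, except H3H113N and WT in SC with 3 each and the 2 groups with copper with 1 each. The starting OD600 was 0.2 in YPD and YPEG, with harvest after 3 to 4 doublings, and 0.05 in SC, with harvest after 5. In SC-lys it was 0.4, and harvest came 24 h later. Per the labels, time in culture often differed between strains, and the SC-lys cultures without copper and the H3H113N-dCcs1 culture with copper grew very slowly. Nothing in the labels says whether replicates were separate cultures, so the p-values measure the spread between these libraries, which may be technical.

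Gluconeogenesis makes hexose phosphates from small carbon compounds and runs when yeast lives on ethanol, glycerol, lactate or acetate instead of sugar. The glyoxylate cycle is the shunt that lets acetyl units feed it, by skipping the decarboxylating steps of the citric acid cycle. In glucose the genes of both routes are held low by the repressor Mig1, and without glucose the zinc cluster activators Cat8 and Sip4 bind a promoter element called the carbon source-responsive element, CSRE. CIT2 answers in addition to the retrograde pathway, in which Rtg1 and Rtg3 bind a short element, the R box, when mitochondrial function is impaired.

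All 8 ORFs are protein-coding, with coordinates here on the R64 build. FBP1 (YLR377C) lies at chrXII:873746-874792 on the minus strand, and PCK1 (YKR097W) lies at chrXI:631152-632801 on the plus strand. ICL1 (YER065C) lies at chrV:285241-286914 on the minus strand, and MLS1 (YNL117W) lies at chrXIV:406358-408022 on the plus strand. MDH2 (YOL126C) lies at chrXV:81787-82920 on the minus strand, and CIT2 (YCR005C) lies at chrIII:120946-122328 on the minus strand. SFC1 (YJR095W) lies at chrX:609773-610741 on the plus strand, and JEN1 (YKL217W) lies at chrXI:22234-24084 on the plus strand.

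The promoters are shown because the 8 genes differ in which of these elements they hold. This division, which depends on the length of promoter searched, is not that of the levels below. There JEN1, without a CSRE match in 600 bases, rose in YPEG against SC. MDH2, with 3 matches to the CSRE consensus, was not called in that contrast. In the 600 bases before the start codon, read from RefSeq's R64 genome on both strands, the CSRE consensus was found in 33 of 6002 protein-coding ORFs, which is 0.55%. The windows were not trimmed at neighbouring genes. Of the 8 genes, 4 held it: PCK1, ICL1, MLS1 with 2 matches and MDH2 with 3. In the following windows, written 5′ to 3′ in the direction of each gene, capitals mark the consensus match on either strand, with 8 flanking bases at each end. The PCK1 window is chrXI:630662-630689 on the plus strand, 490 to 463 bases before the start codon. The ICL1 window is chrV:287294-287321 on the minus strand, 407 to 380 bases before it. The MLS1 window is chrXIV:405819-405876 on the plus strand, 539 to 482 bases before it. The MDH2 window is chrXV:83279-83361 on the minus strand, 441 to 359 bases before it.
PCK1: accgagctTCCTTTCATCCGgcgcggct
ICL1: cccaggttTCCATTCATCCGagcgatca
MLS1: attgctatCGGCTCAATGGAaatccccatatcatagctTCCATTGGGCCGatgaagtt
MDH2: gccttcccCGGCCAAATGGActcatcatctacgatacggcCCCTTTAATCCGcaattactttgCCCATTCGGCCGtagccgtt

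The shorter core, CC and CCG with any 6 bases between them, which overlaps the consensus, was far more common, at 24.7% of the ORFs, and 6 of the 8 genes had it within 600 bases. It brought in FBP1 with 3 matches and SFC1 with 2, and left out CIT2 and JEN1. Within 1000 bases, 8 of the 8 genes had the core, as 38.6% of the ORFs did. The FBP1 window is chrXII:875206-875304 on the minus strand, 512 to 414 bases before the start codon, and the SFC1 window is chrX:609185-609300 on the plus strand, 588 to 473 bases before it. The R box, GTCAC on either strand, was in 49.2% of the ORFs and in 4 of the 8 genes: ICL1, MDH2 and SFC1 with 2 matches each and CIT2 with 3. The CIT2 window is chrIII:122512-122681 on the minus strand, 353 to 184 bases before the start codon. Capitals mark the CSRE core in FBP1 and SFC1, where matches in FBP1 overlap each other, and the R box in CIT2.
FBP1: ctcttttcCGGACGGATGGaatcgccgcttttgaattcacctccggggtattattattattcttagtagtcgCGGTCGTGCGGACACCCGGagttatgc
SFC1: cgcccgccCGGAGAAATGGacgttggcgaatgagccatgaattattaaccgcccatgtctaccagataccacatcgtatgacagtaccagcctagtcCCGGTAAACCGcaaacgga
CIT2: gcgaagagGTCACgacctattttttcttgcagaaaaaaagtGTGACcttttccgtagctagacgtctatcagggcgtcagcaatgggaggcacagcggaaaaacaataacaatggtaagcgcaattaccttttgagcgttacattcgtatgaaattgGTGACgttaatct

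The libraries held 1168159 to 6738018 reads counted on ORFs. The deletions matched the labels: CTR1 had at most 1 read in the 4 libraries labelled as its deletion and at least 52 in the other 24, and CCS1 had at most 1 read in its 10 deletion libraries and at least 106 in the other 18. A KAPA kit gave the 14 libraries of YPD and of SC-lys, with or without copper, and a TruSeq kit for NeoPrep gave the 14 of YPEG and SC. Except in YPEG against SC, effects of medium and of kit cannot be told apart. HXK1, a hexokinase gene that rises as glucose runs out, stood at 3401 RPKM in H3H113N replicate 3 against 318 and 487 in the other H3H113N libraries in SC, and at 5215 RPKM in WT replicate 3 against 112 and 236 in the other WT libraries in SC. It also differed between the SC-lys libraries, with 140 and 1159 RPKM in H3H113N-dCcs1 and 405 and 2948 RPKM in dCcs1. The copper libraries had 1803 RPKM in H3H113N-dCcs1 and 3298 RPKM in dCcs1. Every 50-base window of the 8 ORFs occurred once in the genome, and none of the 8 overlapped another RefSeq gene. In these bulk samples, fewer cells expressing a gene and less RNA per cell cannot be told apart.

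**Figure D1:**
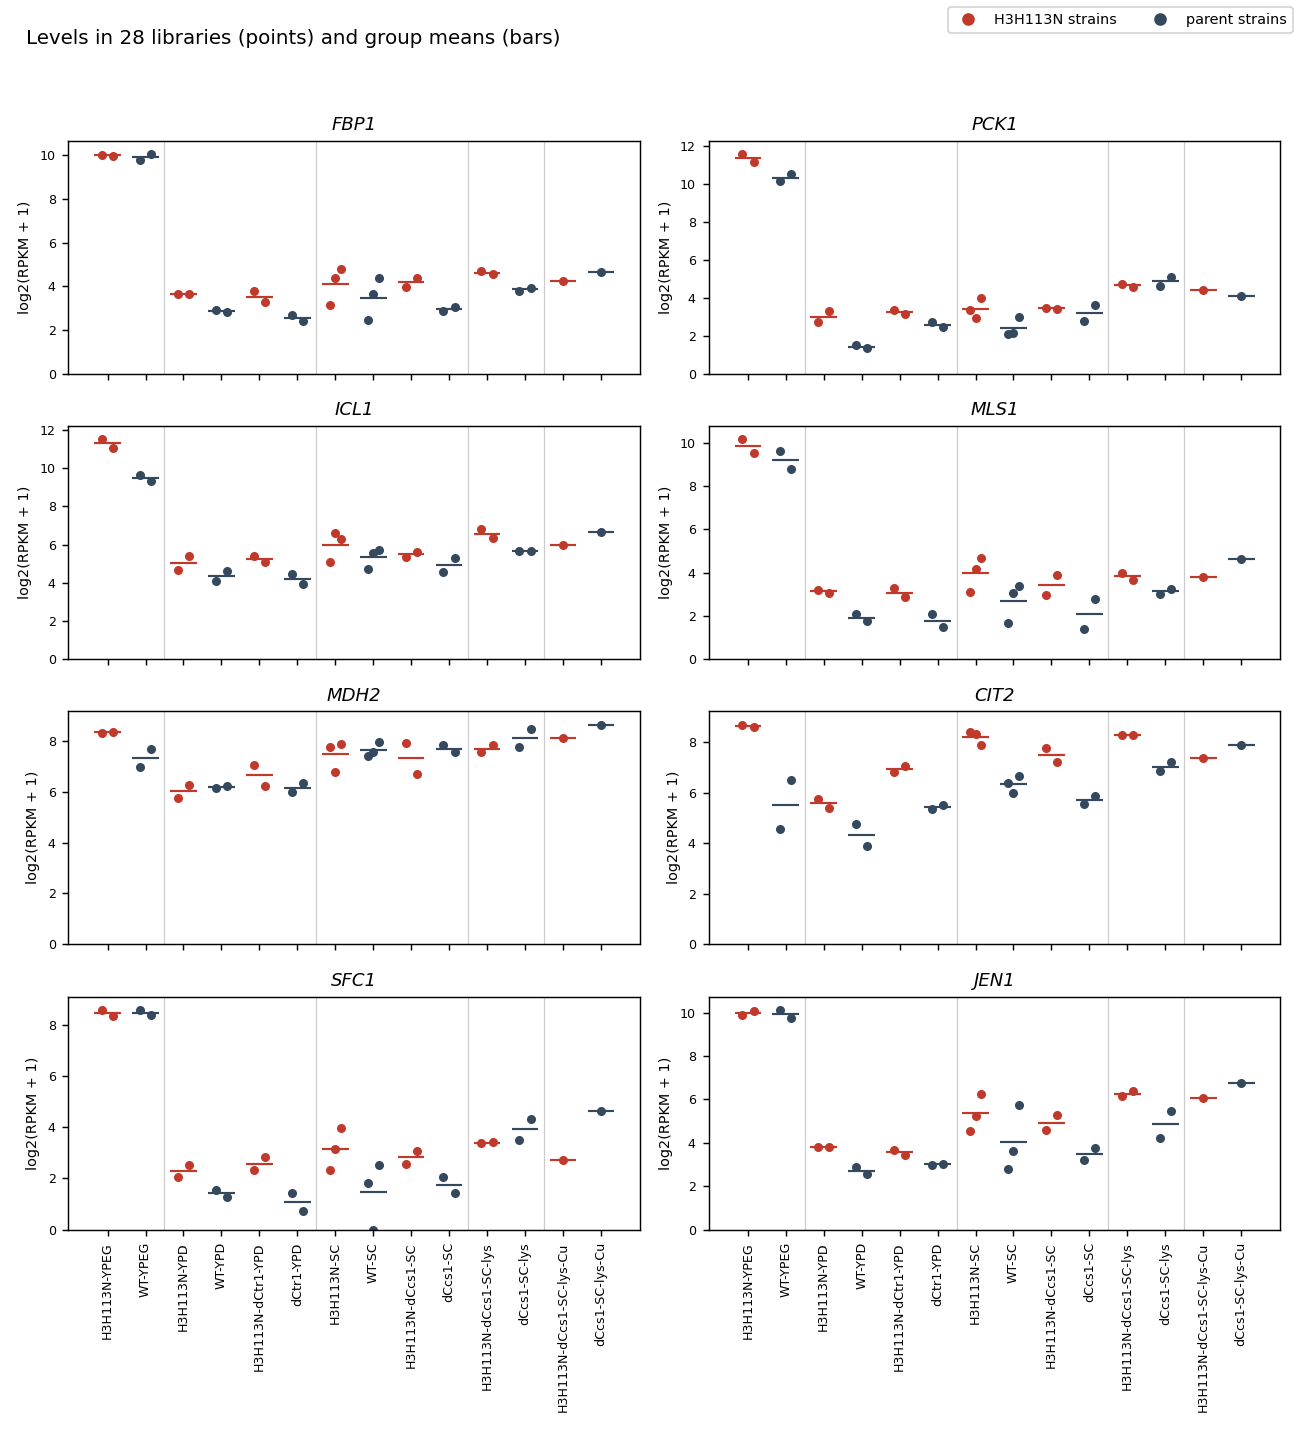
Each panel gives 1 gene as log2(RPKM + 1) on the vertical axis in all 28 libraries (points), with the mean of each group's log2 values as a bar; H3H113N strains are red and their parents dark blue. FBP1, PCK1, ICL1, MLS1, SFC1 and JEN1 stand far above all other libraries in YPEG, while MDH2 and CIT2 in YPEG overlap with other media and CIT2 is higher in H3H113N strains in every medium without added copper.

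On ethanol and glycerol, 6 of the 8 genes stood far above their levels in every other library. The lowest of the 4 YPEG libraries exceeded the highest of the other 24 libraries 32.7-fold for FBP1, 33.9-fold for PCK1, 5.78-fold for ICL1, 18.1-fold for MLS1, 13.8-fold for SFC1 and 8.08-fold for JEN1. MDH2 and CIT2 were different: 15 of the 24 other libraries had more MDH2, and 23 had more CIT2, than the lowest YPEG library. The same split appeared in the edgeR quasi-likelihood test of YPEG against SC, the contrast of media made with 1 kit, where a gene was called at a Benjamini-Hochberg adjusted p under 0.05. In H3H113N, 6 of the 8 genes rose, while 10.9% of all tested ORFs were called. In WT the same 6 genes rose, while 11.5% of all ORFs were called.

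Among the gluconeogenic enzymes, PCK1, phosphoenolpyruvate carboxykinase and the entry step of the pathway, had 3018 and 2220 RPKM in H3H113N in YPEG, against 9.17, 6.74 and 14.6 RPKM in SC. In WT it had 1136 and 1442 RPKM in YPEG, against 3.31, 3.42 and 6.79 RPKM in SC. Its log2 fold change was 7.99 in H3H113N (SE 0.42, adjusted p = 1.38e-09) and 8.0 in WT (SE 0.43, adjusted p = 1.85e-09), about 256-fold. FBP1, fructose-1,6-bisphosphatase, the step that opposes phosphofructokinase, had 1047 and 1007 RPKM in H3H113N in YPEG, against 7.78, 19.6 and 26.9 RPKM in SC. Its WT levels were 882 and 1066 RPKM in YPEG, against 4.44, 11.4 and 19.5 RPKM in SC. FBP1 rose by 5.87 in H3H113N (SE 0.43, adjusted p = 1.50e-07) and by 6.26 in WT (SE 0.44, adjusted p = 4.91e-08) on the log2 scale. For both genes the YPEG and SC libraries were separated by more than an order of magnitude.

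The glyoxylate cycle enzymes did not move as a block. ICL1, isocitrate lyase, the first step of the shunt, had 2938 and 2178 RPKM in H3H113N in YPEG, against 32.7, 95.6 and 77.1 RPKM in SC. In WT it had 795 and 639 RPKM in YPEG, against 25.3, 46.3 and 52.4 RPKM in SC. The log2 rise was 5.28 in H3H113N (SE 0.40, adjusted p = 1.69e-07) and 3.93 in WT (SE 0.39, adjusted p = 2.89e-06), the smallest WT rise among the 6 genes. MLS1, malate synthase, which joins glyoxylate to acetyl-CoA, had 1153 and 731 RPKM in H3H113N in YPEG, against 7.69, 17 and 24.2 RPKM in SC. Its WT libraries had 789 and 438 RPKM in YPEG, against 2.13, 7.19 and 9.50 RPKM in SC, a log2 rise of 6.50 (SE 0.56, adjusted p = 5.46e-07). Malate synthase thus spanned a wider range between media than isocitrate lyase, whose level in glucose was higher than that of MLS1 on this scale per length.

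MDH2, the cytosolic malate dehydrogenase, was already transcribed in glucose. It had 313 and 330 RPKM in H3H113N in YPEG, against 216, 110 and 234 RPKM in SC. In WT it had 126 and 205 RPKM in YPEG, against 167, 187 and 247 RPKM in SC. The log2 fold changes were 0.75 in H3H113N (SE 0.42, adjusted p = 0.248) and −0.46 in WT (SE 0.43, adjusted p = 0.549), so no change was called. CIT2, the peroxisomal citrate synthase that supplies the cycle with citrate, had 415 and 391 RPKM in H3H113N in YPEG, against 340, 317 and 240 RPKM in SC. Its WT libraries had 22.4 and 89.3 RPKM in YPEG, against 82.8, 62.2 and 102 RPKM in SC. The fold changes of CIT2 were 0.42 in H3H113N (SE 0.41, adjusted p = 0.526) and −0.74 in WT (SE 0.43, adjusted p = 0.303). The 2 WT libraries in YPEG were far apart, and the CIT2 libraries of WT in YPEG and SC overlapped.

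Both transporters were far lower in SC than in YPEG, SFC1 down to no reads in 1 library. SFC1, the mitochondrial carrier that exchanges succinate for fumarate, had 389 and 331 RPKM in H3H113N in YPEG, against 4.01, 7.95 and 14.9 RPKM in SC. In WT it had 384 and 335 RPKM in YPEG, against 2.54, 0 and 4.76 RPKM in SC. The WT library at 0 held no SFC1 read among 1419215, which allows a level of up to 2.18 RPKM if 3 reads are taken as the limit that a count of 0 allows, counting error only. JEN1, the plasma membrane importer of lactate and pyruvate, had 938 and 1073 RPKM in H3H113N in YPEG, against 22.4, 37.0 and 75.2 RPKM in SC. Its WT libraries had 1117 and 856 RPKM in YPEG, against 5.91, 11.4 and 52.4 RPKM in SC. The highest JEN1 level of each SC group was in replicate 3, the library in which HXK1 was also highest. SFC1 rose by 5.38 in H3H113N (SE 0.47, adjusted p = 9.20e-07) and by 6.94 in WT (SE 0.53, adjusted p = 1.15e-07) on the log2 scale. JEN1 rose by 4.50 in H3H113N (SE 0.64, adjusted p = 0.000254) and by 5.23 in WT (SE 0.66, adjusted p = 4.76e-05). The WT call for JEN1 was lost when the fit held the 2 compared groups alone (adjusted p = 0.0629).

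**Figure D2:**
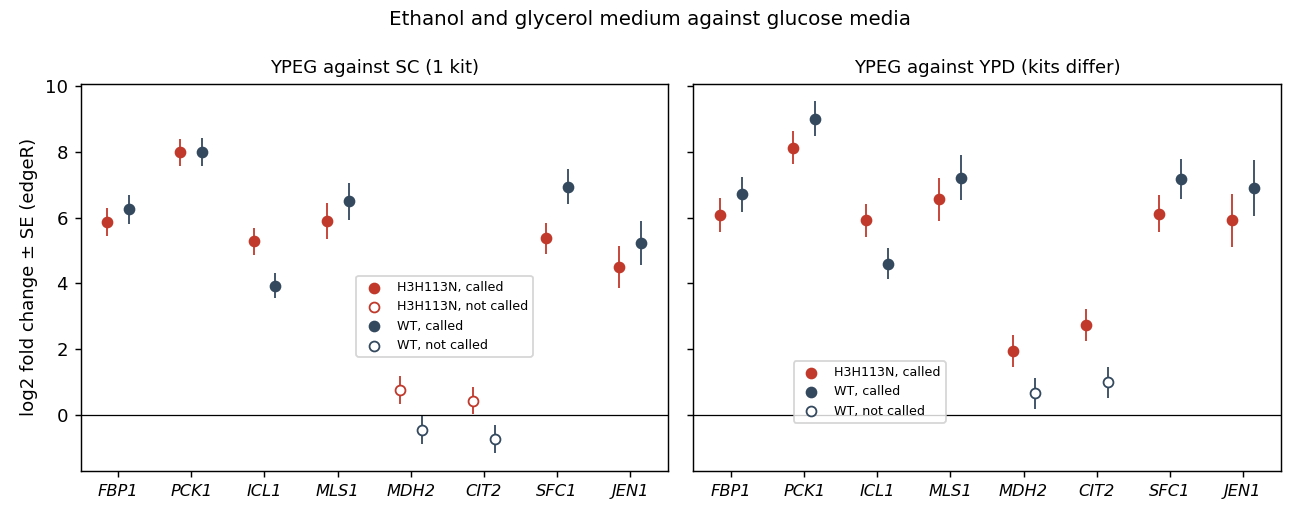
The vertical axis gives the edgeR log2 fold change ± SE of YPEG over SC (left, 1 library kit) and of YPEG over YPD (right, kits differ) for each gene, in H3H113N (red) and WT (dark blue); filled points had an adjusted p under 0.05. MDH2 and CIT2 lie near 0 in the left panel, while the other genes lie between 3.93 and 8.0.

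Against YPD, where the kit changed with the medium, all 8 genes were higher in YPEG in H3H113N (25.9% of all ORFs called) and 6 were higher in WT (27.2% called). These contrasts share their YPEG libraries with those against SC. The additional genes in H3H113N were MDH2, with a log2 fold change of 1.94 (SE 0.48, adjusted p = 0.00732), and CIT2, at 2.73 (SE 0.49, adjusted p = 0.000786). In WT the values were 0.66 (SE 0.47, adjusted p = 0.319) for MDH2 and 0.99 (SE 0.47, adjusted p = 0.134) for CIT2. The MDH2 call was lost without H3H113N replicate 1 in YPD (log2 fold change 1.70, adjusted p = 0.0766). Between the 2 glucose media in WT, SC against YPD, CIT2 alone of the 8 genes was called, at 82.2 ± 19.7 RPKM in SC (SD, n = 3) and 19.8 ± 8.71 RPKM in YPD (SD, n = 2). Its log2 fold change was 1.73 (SE 0.45, edgeR adjusted p = 0.0251), while 8.37% of all ORFs were called. That call was lost without WT replicate 1 or 2 in YPD or replicate 3 in SC, and in a fit of the 2 groups alone.

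Across the 14 group means of log2(RPKM + 1), the 6 genes that rose in YPEG had Pearson correlations of 0.93 to 0.994 with each other over 15 pairs, as a description of groups that differ mainly by the YPEG libraries. MDH2 had 0.391 to 0.607 with those 6 genes and CIT2 had 0.357 to 0.546, while CIT2 and MDH2 had 0.729 with each other. The ORFs outside the 8 whose pattern was most like the mean of the 8 were IDP2 (0.982), ICL2 (0.980), MEF2 (0.972), YKL147C (0.971) and DLD1 (0.969). Without the 2 groups of 1 library, IDP2, ICL2 and MEF2 were still among the top 5, and YKL147C and DLD1 were not. IDP2 encodes the cytosolic NADP-dependent isocitrate dehydrogenase, ICL2 the mitochondrial 2-methylisocitrate lyase related to ICL1, MEF2 a mitochondrial translation elongation factor and DLD1 a D-lactate dehydrogenase.

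The lists of neighbouring pathway genes differed in direction between media. In YPEG against SC, the list of acetate, lactate, ethanol and carnitine use had 14 of 16 genes higher and 0 lower in H3H113N, and 12 of 16 higher and 0 lower in WT. In WT it was led by IDP2 (log2 fold change 5.13), the inner membrane carnitine carrier CRC1 (3.22), the acetate transporter ADY2 (2.97) and the mitochondrial aldehyde dehydrogenase ALD4 (2.93). The 10 enzymes that glycolysis and gluconeogenesis share went the other way, with 5 lower in H3H113N and 9 lower in WT. The WT values were −3.54 for enolase ENO2, −2.69 for ENO1, −2.28 for phosphoglycerate mutase GPM1 and −2.11 for glyceraldehyde-3-phosphate dehydrogenase TDH2. In WT, the enzymes special to gluconeogenesis were thus high where most transcripts of the reversible steps were low.

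Glycolytic steps that oppose gluconeogenesis had 1 of 6 genes lower in H3H113N and 2 of 6 lower in WT, where pyruvate kinase CDC19 changed by −2.84 and phosphofructokinase PFK1 by −1.02. Of 10 paralogs and partner isoenzymes, 5 were higher in H3H113N and 5 in WT, with PYC1, a pyruvate carboxylase, at 3.71, aconitase ACO1 at 2.28, ICL2 at 2.18 and mitochondrial malate dehydrogenase MDH1 at 2.14 in WT. Retrograde targets other than CIT2 had 3 of 6 genes higher and 0 lower in H3H113N, and 3 higher and 2 lower in WT. In WT the isocitrate dehydrogenase subunits IDH1 (3.25) and IDH2 (2.81) and ACO1 rose, while the lactate dehydrogenase DLD3 fell by 1.91 and the transporter gene ATO3 fell. None of the 8 genes of the GID ubiquitin ligase, which degrades gluconeogenic enzymes when glucose returns, was called by edgeR in either strain. At an unadjusted p under 0.05 there were 2 in H3H113N and 0 in WT, and DESeq2 called 0 in both. Among 13 regulators, 4 were higher and 1 lower in H3H113N, and 1 was higher and 2 lower in WT. The WT values were 3.30 for SIP4, −2.69 for MIG2, a partner of the repressor MIG1, and −1.71 for hexokinase HXK2.

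The H3H113N allele was compared with its parent strain in 6 settings, each within 1 medium and 1 kit: against WT in YPD, YPEG and SC, against dCtr1 in YPD, and against dCcs1 in SC and SC-lys. CIT2 was the gene that stood out. All H3H113N libraries had more CIT2 than all parent libraries in each of the 6 settings, as 3.11% of all tested ORFs did. Of the other genes, ICL1 did so in 5 settings, FBP1, MLS1 and JEN1 in 4, PCK1 and SFC1 in 3 and MDH2 in 1. In a single setting, between 15.3% (SC) and 48% (SC-lys) of all ORFs did so, and shares for 1 to 5 settings were not counted. The mean level was higher in H3H113N in all 6 settings for FBP1, ICL1, MLS1, CIT2 and JEN1, in 5 for PCK1 and SFC1, and in 2 for MDH2. The share of all ORFs with such means was not counted.

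Few of these differences passed the test within a single setting. In YPD, H3H113N against WT, 1 of the 8 genes was called while 1.24% of all ORFs were, and 7 genes had both H3H113N libraries above both WT libraries, as 37.5% of all ORFs did. The called gene was PCK1, at 5.48 and 8.96 RPKM in H3H113N and 1.86 and 1.53 RPKM in WT. It rose by 1.88 on the log2 scale (SE 0.43, edgeR adjusted p = 0.0368). The call was lost when any of the 4 YPD libraries was left out, with fold changes of 1.49 to 2.19, and in a fit of the 2 groups alone (adjusted p = 0.236). MLS1 had 8.22 and 7.30 RPKM in H3H113N, against 3.26 and 2.34 RPKM in WT (log2 fold change 1.27, SE 0.59, adjusted p = 0.381). CIT2 had 53.3 and 40.8 RPKM in H3H113N, against 26 and 13.6 RPKM in WT (log2 fold change 1.07, SE 0.47, adjusted p = 0.357). PCK1 and MLS1 stood under 10 RPKM in both strains, where counts were low.

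In YPEG, 2 of the 8 genes were called in H3H113N against WT, and 1.03% of all ORFs were. CIT2 had 415 and 391 RPKM in H3H113N, against 22.4 and 89.3 RPKM in WT, and rose by 2.81 on the log2 scale (SE 0.49, edgeR adjusted p = 0.0119). ICL1 had 2938 and 2178 RPKM in H3H113N, against 795 and 639 RPKM in WT, a log2 fold change of 1.82 (SE 0.41, adjusted p = 0.0427). CIT2 and ICL1, which sit at the citrate and isocitrate steps of the cycle, were therefore several-fold higher in the mutant on ethanol and glycerol. PCK1 had 3018 and 2220 RPKM in H3H113N, against 1136 and 1442 RPKM in WT, without a call (log2 fold change 1.0, SE 0.37, adjusted p = 0.235). FBP1, SFC1 and JEN1 had overlapping libraries, with means of 1027 RPKM in H3H113N and 974 RPKM in WT for FBP1 and nearly equal means for the transporters. In all, 4 genes had both H3H113N libraries above both WT libraries, against 31.4% of all ORFs. The CIT2 call was lost without H3H113N replicate 1 (2.71) or WT replicate 1 (2.10), and the ICL1 call without any of the 4 libraries (1.53 to 2.07) and under other scalings.

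Chromosome V, which carries ICL1, was shifted as a whole in H3H113N-dCtr1 and in H3H113N, except for H3H113N replicate 1 in SC. The median log2 fold change of its 326 tested ORFs was 0.51 in YPD, 0.50 in YPEG, 0.44 in SC and 0.68 in H3H113N-dCtr1 against dCtr1, while the median of all ORFs was near 0. In H3H113N-dCcs1 against dCcs1 the chromosome V median was 0.06 in SC and 0.03 in SC-lys. The shift of a single library was its chromosome's median log2 deviation from the mean over groups, less that of all ORFs. For chromosome V in SC it was −0.05 in H3H113N replicate 1, against 0.38 and 0.44 in replicates 2 and 3. With each chromosome centred on its own median, the ICL1 difference in YPEG was 1.33 (adjusted p = 0.123). For chromosome III, which carries CIT2, the median was 1.11 in H3H113N-dCtr1 against dCtr1. For chromosome XI, which carries PCK1 and JEN1, it was 0.35 in SC and 0.25 in SC-lys in H3H113N-dCcs1 against dCcs1. The part of these shifts in the differences of single genes was not tested beyond this centring.

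In SC, 1 of the 8 genes was called and 1.59% of all ORFs were. CIT2 had 340, 317 and 240 RPKM in H3H113N, against 82.8, 62.2 and 102 RPKM in WT, and rose by 1.65 on the log2 scale (SE 0.39, edgeR adjusted p = 0.0387). It was the only gene of the 8 whose 3 H3H113N libraries all exceeded the 3 WT libraries, as 15.3% of all ORFs did. SFC1 had 4.01, 7.95 and 14.9 RPKM in H3H113N, against 2.54, 0 and 4.76 RPKM in WT (log2 fold change 1.55, SE 0.58, adjusted p = 0.196). MLS1 had 7.69, 17 and 24.2 RPKM in H3H113N, against 2.13, 7.19 and 9.50 RPKM in WT (log2 fold change 1.21, SE 0.50, adjusted p = 0.244). For SFC1 and MLS1 the libraries of the strains overlapped. Between same-numbered libraries, whose deviations went together, H3H113N was above WT in 3 of 3 pairs for all genes except MDH2, with 1 of 3. The share of all ORFs above in 3 of 3 pairs was not counted, and is at least the 15.3% without overlap. With the replicate number as a block in every medium, 3 of the 8 genes were called: CIT2, MLS1 (log2 fold change 1.23, SE 0.22, adjusted p = 0.0121) and JEN1 (1.11, SE 0.27, adjusted p = 0.0448). With the block in these 2 groups alone, CIT2 was the 1 gene called, and the adjusted p was 0.0834 for MLS1 and 0.0653 for JEN1. The CIT2 call was lost without both replicates 3, which had the high HXK1 level (1.96, adjusted p = 0.0598), without any other single library of the 2 groups except WT replicate 3, in a fit of the 2 groups alone (1.65, adjusted p = 0.353), and with chromosomes centred (1.46, adjusted p = 0.101).

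In the strains that already lacked a copper gene, edgeR called 0 of the 8 genes. For H3H113N-dCtr1 against dCtr1 in YPD, 4 genes had an unadjusted p under 0.05, DESeq2 called 1, and 2.18% of all ORFs were called by edgeR. There 7 genes had both H3H113N-dCtr1 libraries above both dCtr1 libraries, as 38.5% of all ORFs did. CIT2 had 112 and 132 RPKM in H3H113N-dCtr1, against 39.5 and 44.2 RPKM in dCtr1 (log2 fold change 1.34, SE 0.47, adjusted p = 0.178). This stands beside a median of 1.11 over the 179 tested ORFs of chromosome III, which carries CIT2. SFC1 had 4.03 and 6.10 RPKM in H3H113N-dCtr1, against 1.71 and 0.644 RPKM in dCtr1 (log2 fold change 1.97, SE 0.63, adjusted p = 0.134). MLS1 had 8.75 and 6.22 RPKM in H3H113N-dCtr1, against 3.24 and 1.78 RPKM in dCtr1 (log2 fold change 1.40, SE 0.58, adjusted p = 0.303). PCK1, called without the CTR1 deletion, had 9.33 and 7.97 RPKM in H3H113N-dCtr1, against 5.54 and 4.45 RPKM in dCtr1 (log2 fold change 0.60, SE 0.39, adjusted p = 0.637).

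For H3H113N-dCcs1 against dCcs1 in SC, 2 genes had an unadjusted p under 0.05, DESeq2 called 1 and limma called 1, while edgeR called 1.24% of all ORFs. There 6 genes had both mutant libraries above both dCcs1 libraries, as 28.5% of all ORFs did. CIT2 had 217 and 149 RPKM in H3H113N-dCcs1, against 46.1 and 57.4 RPKM in dCcs1 (log2 fold change 1.65, SE 0.47, edgeR adjusted p = 0.102). FBP1 had 14.8 and 19.9 RPKM in H3H113N-dCcs1, against 6.34 and 7.17 RPKM in dCcs1 (log2 fold change 1.14, SE 0.49, adjusted p = 0.307). DESeq2 called CIT2 (log2 fold change 1.66, adjusted p = 0.0240).

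In SC-lys, where the allele went with calls in 10.7% of all ORFs, the 8 genes did not share a direction. None had an unadjusted p under 0.05 in H3H113N-dCcs1 against dCcs1, and DESeq2 and limma also called 0. There 5 genes had both mutant libraries above both dCcs1 libraries, as 48% of all ORFs did, among them CIT2 with 308 and 312 RPKM in H3H113N-dCcs1, against 114 and 147 RPKM in dCcs1 (log2 fold change 0.94, SE 0.46, adjusted p = 0.225). SFC1 was on the other side, with 9.50 and 9.72 RPKM in H3H113N-dCcs1, against 10.4 and 19.1 RPKM in dCcs1 (log2 fold change −0.92, SE 0.47, adjusted p = 0.248). These fold changes include edgeR's TMM factors, which the RPKM values do not, and lie below the log2 ratios of RPKM.

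**Figure D3:**
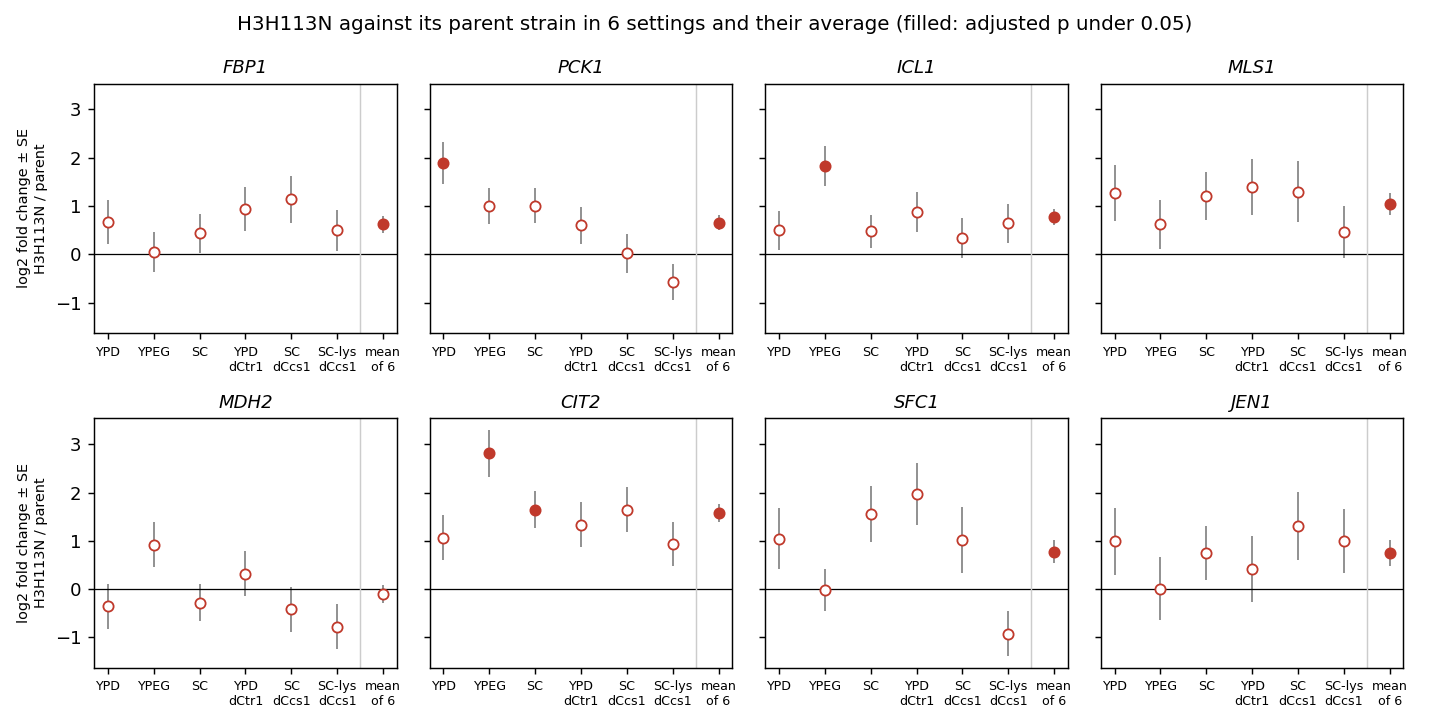
Each panel gives 1 gene's edgeR log2 fold change ± SE of H3H113N over its parent strain in the 6 settings and, right of the line, averaged over them; filled points had an adjusted p under 0.05. CIT2 lies above 0 throughout, MDH2 scatters around 0, and 7 of the 8 averages are filled.

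Averaged over the 6 settings with equal weight, a comparison added after these values had been seen, H3H113N had more transcript of 7 of the 8 genes. This average used all 26 replicated libraries, and 33.8% of all ORFs were called in it. Among the called genes, CIT2 changed most, by 1.57 on the log2 scale (SE 0.19, edgeR adjusted p = 9.31e-06), which is 2.98-fold. MLS1 averaged 1.05 (SE 0.23, adjusted p = 0.00195), ICL1 0.77 (SE 0.16, adjusted p = 0.00137) and SFC1 0.77 (SE 0.24, adjusted p = 0.0174). JEN1 averaged 0.74 (SE 0.27, adjusted p = 0.0400), PCK1 0.66 (SE 0.16, adjusted p = 0.00401) and FBP1 0.62 (SE 0.18, adjusted p = 0.0130). MDH2 was at −0.10 (SE 0.18, adjusted p = 0.720). The median over the 8 genes was 0.76 and over all ORFs 0.00.

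The 7 rises were of unlike firmness. CIT2 stayed between 1.34 and 1.83 under every alternative setting tried and was called in all of them, while JEN1 lost its call in 20 of them, with adjusted p up to 0.0873. With chromosomes centred, ICL1 averaged 0.41 (adjusted p = 0.0439), beside a shift of 0.40 in the median of chromosome V. CIT2 then averaged 1.34 (adjusted p = 8.31e-05), beside a shift of 0.26 for chromosome III. The direction of MDH2 depended on the scaling, since it was 0.09 with library totals, under which the median of all ORFs moved to 0.20.

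Whether the allele's effect differed between settings was tested directly by interaction terms, and edgeR called 0 of the 8 genes in all 4 of them. For YPEG minus SC, 0.0152% of all ORFs were called and 2 of the 8 genes had an unadjusted p under 0.05. The interaction was 1.35 for ICL1 (SE 0.52, adjusted p = 0.930), 1.16 for CIT2 (SE 0.60, adjusted p = 0.949) and −1.57 for SFC1 (SE 0.72, adjusted p = 0.930). For SC-lys minus SC in dCcs1 strains, 0.0455% of all ORFs were called and SFC1 was the single gene of the 8 with an unadjusted p under 0.05, at −1.95 (SE 0.83, adjusted p = 1). For dCtr1 minus CTR1 in YPD, 0% of all ORFs were called, although 149 had an unadjusted p under 0.05 and DESeq2 called 14. PCK1 was the 1 gene of the 8 with an unadjusted p under 0.05 there, at −1.29 (SE 0.58, adjusted p = 1). For dCcs1 minus CCS1 in SC, 0% were called, 159 ORFs had an unadjusted p under 0.05 and DESeq2 called 4, with 0 of the 8 genes at an unadjusted p under 0.05. DESeq2 and limma called 0 of the 8 genes in these 4 tests.

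Neither deletion alone gave a call among the 8 genes. For dCtr1 against WT in YPD, edgeR called 0 of the 8 genes and 0.0455% of all ORFs, 2 of the 8 had an unadjusted p under 0.05, and DESeq2 and limma called 0. PCK1 had 5.54 and 4.45 RPKM in dCtr1, against 1.86 and 1.53 RPKM in WT (log2 fold change 1.49, SE 0.43, adjusted p = 1). CIT2 had 39.5 and 44.2 RPKM in dCtr1, against 26 and 13.6 RPKM in WT (log2 fold change 1.06, SE 0.47, adjusted p = 1). For dCcs1 against WT in SC, edgeR called 0 of the 8 genes and 0.0152% of all ORFs, 1 of the 8 had an unadjusted p under 0.05, and DESeq2 and limma called 0. That gene was PCK1, with 5.86 and 11.4 RPKM in dCcs1, against 3.31, 3.42 and 6.79 RPKM in WT (log2 fold change 0.96, SE 0.39, adjusted p = 1).

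Without lysine, PCK1 and SFC1 rose in dCcs1 relative to SC, in cultures that also differed in kit, incubation and growth rate. In H3H113N-dCcs1, edgeR called 0 of the 8 genes and 13.6% of all ORFs, 2 of the 8 had an unadjusted p under 0.05, and DESeq2 called 1. PCK1 had 25.4 and 22.6 RPKM in SC-lys, against 9.84 and 9.74 RPKM in SC (log2 fold change 1.19, SE 0.39, edgeR adjusted p = 0.0518). In dCcs1, 2 of the 8 genes rose and 6.04% of all ORFs were called. PCK1 had 23.9 and 33.5 RPKM in SC-lys, against 5.86 and 11.4 RPKM in SC (log2 fold change 1.77, SE 0.40, adjusted p = 0.0140), and SFC1 had 10.4 and 19.1 RPKM, against 3.12 and 1.66 RPKM (log2 fold change 2.52, SE 0.60, adjusted p = 0.0196). Both calls were lost in a fit of the 2 groups alone.

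Among regulators, SIP4, whose own gene is a target of Cat8, was called higher in H3H113N than in WT in all 3 media. In YPD it had 5.12 and 2.24 RPKM in H3H113N, against 0.569 and 0.313 RPKM in WT (log2 fold change 2.84, edgeR adjusted p = 0.0214). In YPEG it had 58.5 and 52.2 RPKM in H3H113N, against 15.2 and 10.7 RPKM in WT (log2 fold change 2.07, adjusted p = 0.0290). In SC it had 6.23, 8.94 and 10.1 RPKM in H3H113N, against 0.878, 0.849 and 1.85 RPKM in WT (log2 fold change 2.64, adjusted p = 0.00861). The WT values rest on 6 and 4 reads in YPD and on 8, 3 and 7 reads in SC. SIP4 libraries of H3H113N were above those of the parent in all 6 settings, as for 3.11% of all ORFs. Its average over the settings was 2.04 (SE 0.21, edgeR adjusted p = 1.80e-06). The single-setting calls were lost without some of the libraries: any WT library or H3H113N replicate 1 in YPD (2.14 to 3.26), any of the 4 libraries in YPEG (1.89 to 2.29), and WT replicate 1 in SC (2.40).

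Neither CAT8 nor ADR1 was called in the average. CAT8 averaged 0.23 (adjusted p = 0.599) and ADR1, an activator of ethanol and peroxisomal genes, averaged 0.27 (adjusted p = 0.418), while the repressor MIG1 averaged 0.11 (adjusted p = 0.549). CAT8 had 60.7 ± 9.90 RPKM in H3H113N in YPEG and 47.9 ± 5.66 RPKM in WT (SD, n = 2 each), its highest groups. The retrograde factor RTG3 had 121 and 118 RPKM in H3H113N-dCcs1 in SC-lys, against 49.5 and 39.0 RPKM in dCcs1 (log2 fold change 1.13, adjusted p = 0.00612), and averaged 0.45 over the settings. Centred on its chromosome, that average was −0.00178, so the average rise of RTG3 was no larger than the shift of the chromosome that carries it. Its partner RTG1 averaged −0.46 and the sensor RTG2 −0.22, both called lower. ERT1, an activator of gluconeogenic genes, averaged 0.62 and HXK2, which takes part in glucose repression, −1.04, so 3 of the 13 regulators were higher and 3 lower. Of all ORFs, 18.5% were called higher and 15.2% lower in this average. Among the regulators, a value centred on the chromosome is given here only for the RTG3 average.

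**Figure D4:**
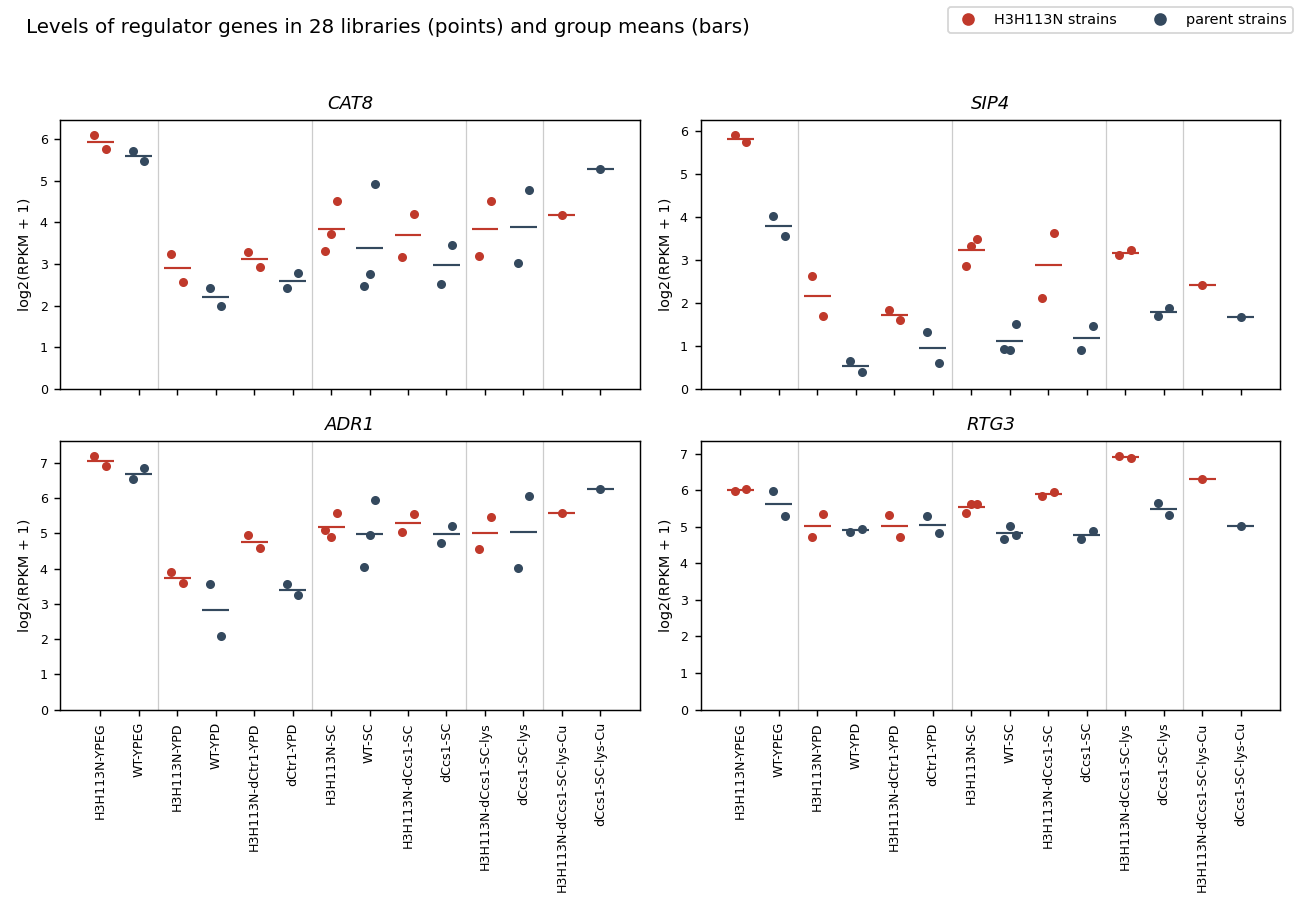
Each panel gives 1 regulator gene as log2(RPKM + 1) in all 28 libraries (points), with the mean of each group's log2 values as a bar. SIP4 is higher in H3H113N strains (red) than in their parents (dark blue) in each of the 6 settings. CAT8 and ADR1 vary with the medium, and their strains overlap in SC and SC-lys. In YPD, with or without CTR1, and in YPEG, their H3H113N libraries lie above the parent libraries, as 31.4% to 38.5% of all ORFs do there.

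In the averaged H3H113N comparison, the list of acetate, lactate, ethanol and carnitine use had 9 of 16 genes higher and 1 lower, with a median of 0.70. Its leading genes were CRC1 (1.47), the peroxisomal thiolase POT1 (1.32), ADY2 (1.23) and the carnitine acetyltransferase YAT2 (1.08), and alcohol dehydrogenase ADH2 was at −0.45. Enzymes shared by glycolysis and gluconeogenesis had 6 of 10 lower, with a median of −0.44, led by ENO2 (−0.62), TDH2 (−0.52), the aldolase FBA1 (−0.50) and triose phosphate isomerase TPI1 (−0.44). Of the 6 opposed glycolytic genes, the phosphofructokinase subunits PFK2 (−0.64) and PFK1 (−0.55) were lower. With 33.8% of all ORFs called in this comparison, these counts stand beside a high background.

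Of the 10 paralogs and partner isoenzymes, the mitochondrial citrate synthase gene CIT3 was higher (0.99) and the peroxisomal malate dehydrogenase gene MDH3 lower (−0.38). CIT3 was also called in single settings, at 10.3 and 11.5 RPKM in H3H113N and 2.59 and 4.39 RPKM in WT in YPD (log2 fold change 1.40, adjusted p = 0.0357). In YPEG it had 57.2 and 64.7 RPKM in H3H113N, against 19 and 20.3 RPKM in WT (log2 fold change 1.61, adjusted p = 0.0139). Of the 6 retrograde targets other than CIT2, DLD3 was higher (1.23) and ATO3 lower (−0.96), and DLD3 was called in YPEG (2.02, adjusted p = 0.0471). The median of that list was 0.03. Of the 8 GID genes, VID24, the substrate receptor, was higher (0.81).

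Copper was added to SC-lys in 1 library of each strain, so there is no replicate check and no test. The labels name the SC-lys cultures as very slow in growth, except dCcs1 with copper. In dCcs1, effects of copper and of growth therefore cannot be told apart. In H3H113N-dCcs1, the copper library was above both libraries without copper for 1 of the 8 genes, MDH2, and below both for 6, while MLS1 lay between. Among all ORFs, 20.4% were above both and 55.4% below both. In dCcs1, the copper library was above both for 7 of the 8 genes and below both for 1, PCK1, while among all ORFs 17.1% were above and 56.7% below. The largest ratio of copper to the mean without it was 3.46 for JEN1, at 106 RPKM with copper (95% Poisson interval 99.4 to 112.9, counting error only) against 17.9 and 43.4 RPKM without. MLS1 followed at 3.06, with 23.9 RPKM (20.7 to 27.5) against 7.14 and 8.49 RPKM. The dCcs1 copper library had the highest HXK1 level of the 6 libraries in SC-lys with or without copper, and the part of this in the ratios was not tested.

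With copper, H3H113N-dCcs1 was below dCcs1 for 7 of the 8 genes, as 26% of all ORFs were. CIT2 had 166 RPKM in H3H113N-dCcs1 (157 to 175) and 237 RPKM in dCcs1 (226 to 249), a ratio of 0.700, although it was higher in H3H113N in all 6 settings without added copper. SFC1 had 5.53 RPKM in H3H113N-dCcs1 (3.73 to 7.90) and 24.0 RPKM in dCcs1 (19.8 to 28.8), a ratio of 0.231. PCK1 was the exception, with 20.2 RPKM in H3H113N-dCcs1 (17.4 to 23.3) and 16.1 RPKM in dCcs1 (13.4 to 19.1). Chromosome XI, which carries PCK1, was shifted by 0.34 (log2) in the H3H113N-dCcs1 copper library and by −0.02 in the dCcs1 copper library. The part of this shift in the PCK1 difference was not tested.

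**Figure D5:**
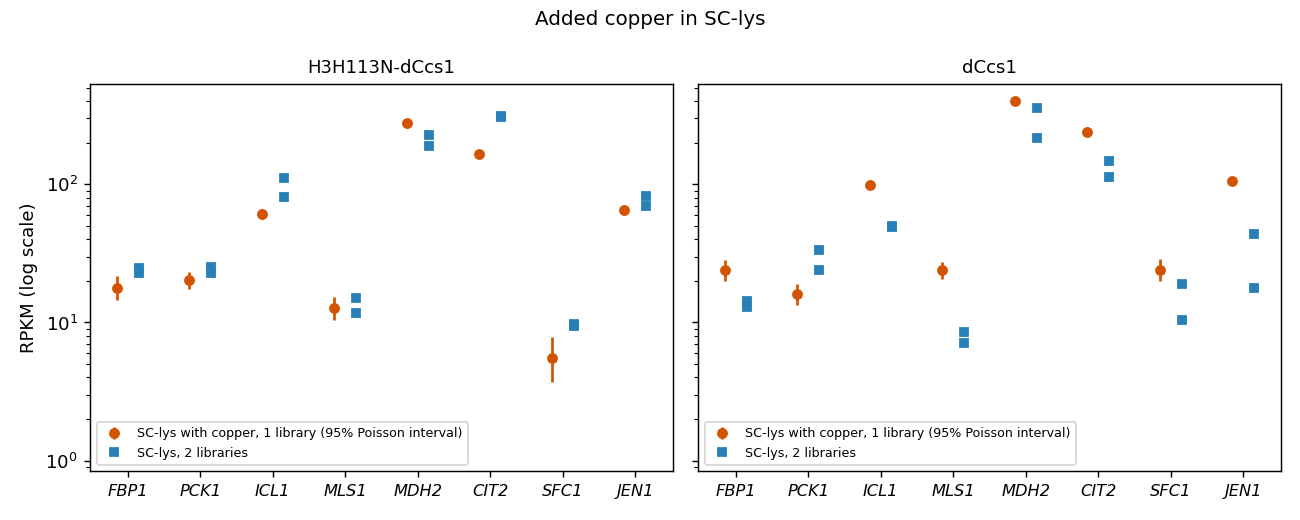
The vertical axis gives RPKM on a log scale for each gene in SC-lys with copper (orange, 1 library with its 95% Poisson interval) and without copper (blue, 2 libraries), in H3H113N-dCcs1 (left) and dCcs1 (right). In dCcs1 the copper library lies above both others for all genes except PCK1, and in H3H113N-dCcs1 it lies below both for 6 of the 8.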

How the data were processed

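Poly(A)+ RNA was sequenced as single-end 50-base reads from inserts of about 170 bp, per the labels' protocols, which also state that strand information was not used. The deposited counts are whole reads per ORF, and the deposited RPKM values equal those counts divided by ORF length and by the sum over all ORFs, within a relative difference of 3.8e-09. Per the submitters' processing notes TopHat2 2.0.9 and the R64 (sacCer3) genome were used; the counting tool is not given in the sources used here. The 28 libraries were grouped by their titles into 14 groups. Counts from the 26 libraries of the 12 replicated groups entered edgeR 4.0.16 (R 4.3.3) with TMM scaling, 1 coefficient per group and quasi-likelihood tests, with ORFs kept at a mean of at least 1 RPKM. The fit had 14 residual degrees of freedom and a common biological coefficient of variation of 29.5%. P-values were adjusted by Benjamini-Hochberg over all 6592 ORFs of a comparison, with calls at an adjusted p under 0.05. Each SE was taken as the log2 fold change over the root of its F statistic. The fit was checked on simulated counts. The alternatives were DESeq2 1.42.0, limma 3.58.1 on log2(RPKM + 1) and log2(RPKM + 0.1), other scalings and filters, centred chromosomes, replicate blocks and left-out libraries.

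Replicate numbers of H3H113N and WT in SC paired the libraries: over 6341 ORFs, deviations from the group means correlated at 0.60, 0.49 and 0.80 for the 3 numbers. Groups of 2 cannot show this with 3 pairs, and nothing in the labels says that a number marks a shared day. Their correlations between H3H113N and parent were 0.66 in YPD, 0.13 in YPEG and 0.24 in the dCtr1 strains. In the dCcs1 strains they were 0.53 in SC and 0.58 in SC-lys. The main tests used no replicate block in any medium.

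The 8 genes and the lists beside them (acetate, lactate, ethanol and carnitine use; enzymes shared by glycolysis and gluconeogenesis; glycolytic steps opposed to gluconeogenesis; paralogs and partner isoenzymes; regulators; retrograde targets; GID ubiquitin ligase) were chosen with earlier results of these data known. From each list, at most 4 called genes with the largest fold changes were named per comparison, plus the regulators CAT8, SIP4, ADR1, MIG1, RTG1, RTG2 and RTG3. CIT3, DLD3 and RTG3 in single settings, ADH2, ATO3 and MDH3 were named after their values were seen. Motifs were searched in RefSeq's R64 genome, whose ORF coordinates matched the deposited starts. Poisson and floor limits cover counting error only.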

Additional observations from a re-analysis of the deposited data

Results flagged for a closer look

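With added copper, 7 of the 8 genes were lower in H3H113N-dCcs1 than in dCcs1, and each of them had at least 1 setting without added copper in which H3H113N was higher. In SC-lys with copper the level in H3H113N-dCcs1 was a fraction of that in dCcs1: 0.741 for FBP1, 0.618 for ICL1, 0.529 for MLS1, 0.696 for MDH2, 0.700 for CIT2, 0.231 for SFC1 and 0.615 for JEN1. In settings without added copper, all H3H113N libraries were above all parent libraries in 4 settings for FBP1, 5 for ICL1, 4 for MLS1, 1 for MDH2, 6 for CIT2, 3 for SFC1 and 4 for JEN1. Among all ORFs, 15.3% (SC) to 48% (SC-lys) were above in a single setting. Having at least 1 such setting was therefore not particular to these genes. MDH2 had a lower mean in H3H113N in the 4 settings other than YPEG and the dCtr1 strains, and SFC1 in SC-lys, also without added copper. PCK1 was higher in H3H113N-dCcs1 with copper (1.25), in a library whose chromosome XI, which carries PCK1, was shifted by 0.34 (log2). The copper groups had 1 library each and, per the labels, only the H3H113N-dCcs1 culture grew very slowly. These differences in direction were not tested.

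SFC1 was below dCcs1 in both H3H113N-dCcs1 libraries in SC-lys without copper, at 0.652 of the parent's mean RPKM, and above the parent in 3 other settings. The difference to SC was tested by the interaction term and was not called by edgeR (−1.95, unadjusted p = 0.0304, adjusted p = 1). The differences to the other settings were not tested.

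For FBP1, ICL1, CIT2, SFC1 and JEN1, RPKM values with copper also went in opposite directions in the 2 strains. The level with copper was 0.746 of the mean without it in H3H113N-dCcs1 for FBP1, 0.637 for ICL1, 0.536 for CIT2, 0.576 for SFC1 and 0.855 for JEN1, below both libraries without copper in each case. In dCcs1 the same ratios were 1.77, 1.99, 1.82, 1.63 and 3.46, above both libraries. Among all ORFs, 55.4% were below both libraries in H3H113N-dCcs1, and 17.1% were above both in dCcs1. The median ratio, over ORFs with a mean of at least 1 RPKM in these libraries, was 0.870 in H3H113N-dCcs1 and 0.828 in dCcs1. The JEN1 ratio of 0.855 in H3H113N-dCcs1 was thus close to the median there. With 1 copper library per strain, the difference in direction between the strains was not tested.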

How the results depend on the processing

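The 6 rises in YPEG against SC were called under nearly all alternatives, with 6 genes called in H3H113N and 6 to 7 in WT when single libraries were left out. The average over 6 settings had 6 to 7 genes called throughout, and 7 with a replicate block. The direction of MDH2 in that average was reversed at 0.0878 with library totals, 0.0567 with limma at a pseudocount of 1 and 0.0569 at 0.1, and the average of RTG3 was −0.00178 with chromosomes centred. Over 68 values of the 8 genes, 1132 alternatives kept direction and side of the threshold, 61 lost a call, 15 gained one and 3 changed sign, and over 52 values of other genes 170 lost a call and 1 changed sign.

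Counts in single settings were less stable. H3H113N against WT in YPD had 0 genes called in a fit of its 2 groups and 0 without any library, and 2 with a replicate block. In YPEG it had 1 with library totals, median-ratio scaling, limma at either pseudocount or centred chromosomes, and 0 to 1 with a library left out. In SC it had 0 in a fit of its 2 groups or with centred chromosomes, 0 to 2 with libraries left out, 3 with a replicate block in all media, and 1 with the block in these 2 groups alone, which changed no call. H3H113N-dCtr1 against dCtr1 had 1 with DESeq2 or the block. H3H113N-dCcs1 against dCcs1 in SC had 1 with library totals, DESeq2 or limma and 2 with the block, and in SC-lys 1 with the block. For SC-lys against SC, H3H113N-dCcs1 had 1 with library totals, DESeq2, a minimum of 5 RPKM, limma at a pseudocount of 1, its 2 groups alone or centred chromosomes, and 2 with a block by number, while dCcs1 had 1 with limma, 0 in its 2 groups alone and 0 to 2 with a library left out. WT in SC against YPD had 4 with library totals, 2 and 3 with limma, 0 in its 2 groups alone and 0 to 2 with libraries left out. A crossed pairing of dCtr1 and WT in YPD, whose numbers correlated at −0.51, called 0. The cause of these moves was not tested. The median correlation among the 8 genes was 0.939 and 0.961 without the groups of 1 library. The CSRE consensus was in 0 of 8 promoters within 300 bases. Within 1000 bases it was in 5 of 8, and in 0.766% of all ORFs. Depth limits the low genes: in SC some SFC1 values rest on 10 reads or fewer.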
